A study of Mus musculus with 16 samples.

Results

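The 10 genes described here encode the 5 subunits of the transcription factor NF-kB (Nfkb1, Nfkb2, Rel, Rela and Relb), 3 classical inhibitors that bind them (Nfkbia, Nfkbib and Nfkbie), the nuclear inhibitor-like protein Nfkbiz and the feedback enzyme Tnfaip3. They were chosen by gene symbol, as the family together with its best-known inhibitors. All 10 were listed among the 15080 genes of the tumor table and the 13344 genes of the stroma table, and all 10 passed the filter for testing in both, a mean normalized count over 10. RNA was sequenced from sorted bone marrow of leukemic C57BL/6J mice, either WT or IL-6 KO, with the question of what host IL-6 changes in leukemic cells and in their surroundings before chemotherapy. The hosts were bought at 6 to 8 weeks of age, received 500000 B-ALL cells by tail vein and were left untreated for 8 days. The leukemia was the same in all hosts, a BCR-ABL+ Arf-/- B-ALL line that carries luciferase and an mCherry retrovirus, so Il6 was deleted in the host and not in the leukemic cells. After red cell lysis, live single cells were sorted into mCherry+ cells, called tumor, and mCherry- cells, called stroma, which here means every host cell left in the marrow suspension and any leukemic cell without mCherry. There were 4 libraries in each of the 4 groups, WT tumor, IL-6 KO tumor, WT stroma and IL-6 KO stroma.

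NF-kB proteins act as pairs. In resting cells the inhibitors Nfkbia (IkB-alpha), Nfkbib (IkB-beta) and Nfkbie (IkB-epsilon) hold them in the cytoplasm, and signals from cytokine, Toll-like and antigen receptors activate the IKK kinases, which mark the inhibitors for degradation. In the alternative route, the kinase NIK leads to the processing of the Nfkb2 precursor, which pairs mainly with Relb. Several members are themselves NF-kB targets, Nfkbia and Tnfaip3 (A20) above all, so that their RNA often tracks recent activity of the factor, while Nfkbib is known for a weaker dependence on it. In B cell precursors the pathway is tied to survival and to signals of the pre-B cell receptor.

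The letters of the binding site can be read in the promoters of some members. RefSeq promoters on GRCm38.p6, 250 bases before to 50 bases after a start site, were matched for 7 members and not for Nfkb1, Relb and Nfkbiz. The pattern GGGANNTNCC was searched on both strands (reverse complement GGNANNTCCC), and 4 of the 7 members held it in at least 1 promoter. Counted by promoter, 6 of the 10 promoters of the 7 members held it, beside 4.01% of all 32851 promoters searched. Overlapping promoters of Nfkb2 share 1 of the sites. A match describes the sequence and says nothing about binding in these cells. The pattern is 1 strict form of the binding site, and looser forms were not searched, so a promoter without a match may still hold a site. The sites of the 4 members with a match are printed 5′ to 3′ on the strand of the gene, with the match in capitals. For Nfkbib, which is the member that differed in tumor, the stretch between its start site and the first exon of the neighbouring gene Sirt2 is shown. It held no match, and neither did the rest of its promoter or those of Rela and Nfkbie.
Nfkbia, chr12:55492648-55492897 (minus strand), the 250 bases before the start site: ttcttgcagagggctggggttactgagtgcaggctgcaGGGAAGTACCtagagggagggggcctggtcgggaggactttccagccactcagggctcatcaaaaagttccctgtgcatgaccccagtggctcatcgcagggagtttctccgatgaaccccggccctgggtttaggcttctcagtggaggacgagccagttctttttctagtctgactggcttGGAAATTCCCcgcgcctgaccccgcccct
Rel, chr11:23771042-23771071 (minus strand): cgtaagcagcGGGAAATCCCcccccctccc
Nfkb2, chr19:46304688-46304717 (plus strand): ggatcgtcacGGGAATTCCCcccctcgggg
Nfkb2, chr19:46305449-46305478 (plus strand): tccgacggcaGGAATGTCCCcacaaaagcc
Nfkb2, chr19:46305695-46305724 (plus strand): tggtattttcGGGACTTTCCtaagcagcac
Tnfaip3, chr10:19015361-19015388 (minus strand): aggcaaaaaaGGGAACTGCCcagtctgt
Nfkbib, chr7:28766645-28766734 (minus strand), up to the first exon of Sirt2: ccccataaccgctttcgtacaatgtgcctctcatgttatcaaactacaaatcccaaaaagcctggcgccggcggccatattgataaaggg

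Values are the authors' normalized counts, which are estimated reads divided by a size factor of each library. The worth of 1 estimated read, taken as the largest step between values that repeat exactly within a library, lay between 0.604 and 1.58 normalized counts in tumor and between 0.399 and 3.41 in stroma. By this, the tumor libraries held 26.2 to 78.3 M estimated reads (M, 1000000 reads), and the stroma libraries 11.9 to 41.3 M, of which protein-coding genes took only 1.04 to 8.81 M. The totals rest on that step being 1 read, and the depth stated for the study is lower than most of them, so they serve here to compare libraries and not as exact depths. The estimated reads given for single genes below rest on the same step and are no more exact. The share of the 7SL RNA Rn7s1 was higher with IL-6 KO hosts in every tumor library and in all stroma libraries but 1. It held 3.40% to 4.11% of normalized counts (WT) and 5.40% to 6.24% (IL-6 KO) in tumor, 19.2% to 50.1% in WT stroma and 71.5% to 79.0% in the first 3 libraries of IL-6 KO stroma, whereas the fourth had 10.9% on it and 61.5% on the ribosomal RNA CT010467.1. The part of this difference in the results below was not tested. Summed B lineage markers lay between 4934 and 5389 per 1000000 coding counts in tumor and between 110.1 and 487 in stroma, in the direction of the sort labels. Il6 was in neither table, so the genotype labels could not be checked on it, and Lepr and Cxcl12, which define marrow stromal cells in the strict sense, were not in the stroma table. Differences below are IL-6 KO minus WT on the log2(normalized count + 1) scale, from limma with Benjamini-Hochberg adjustment over all genes tested and a threshold of 0.05. The labels do not say whether replicates came from separate mice, so p-values measure the spread between these libraries, and in bulk samples fewer cells of a type and less RNA per cell cannot be told apart.

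In leukemic cells, 1 of the 10 members differed between hosts, and it was an inhibitor. Nfkbib rose 1.81-fold in IL-6 KO tumor. The other 9 did not pass the threshold, with log2 differences between −0.33 and 0.33. Of all 14493 genes tested in tumor, 19.8% passed, and 10.6% passed with higher values in IL-6 KO mice, so the share of members called was not above that of all genes. The median difference of the members was 0.04, beside −0.0059 over all genes, with 6 members higher and 4 lower. After correction of every library for GC content and length of the transcripts, the sign of Rel, Rela and Nfkbie turned.

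**Figure D1:**
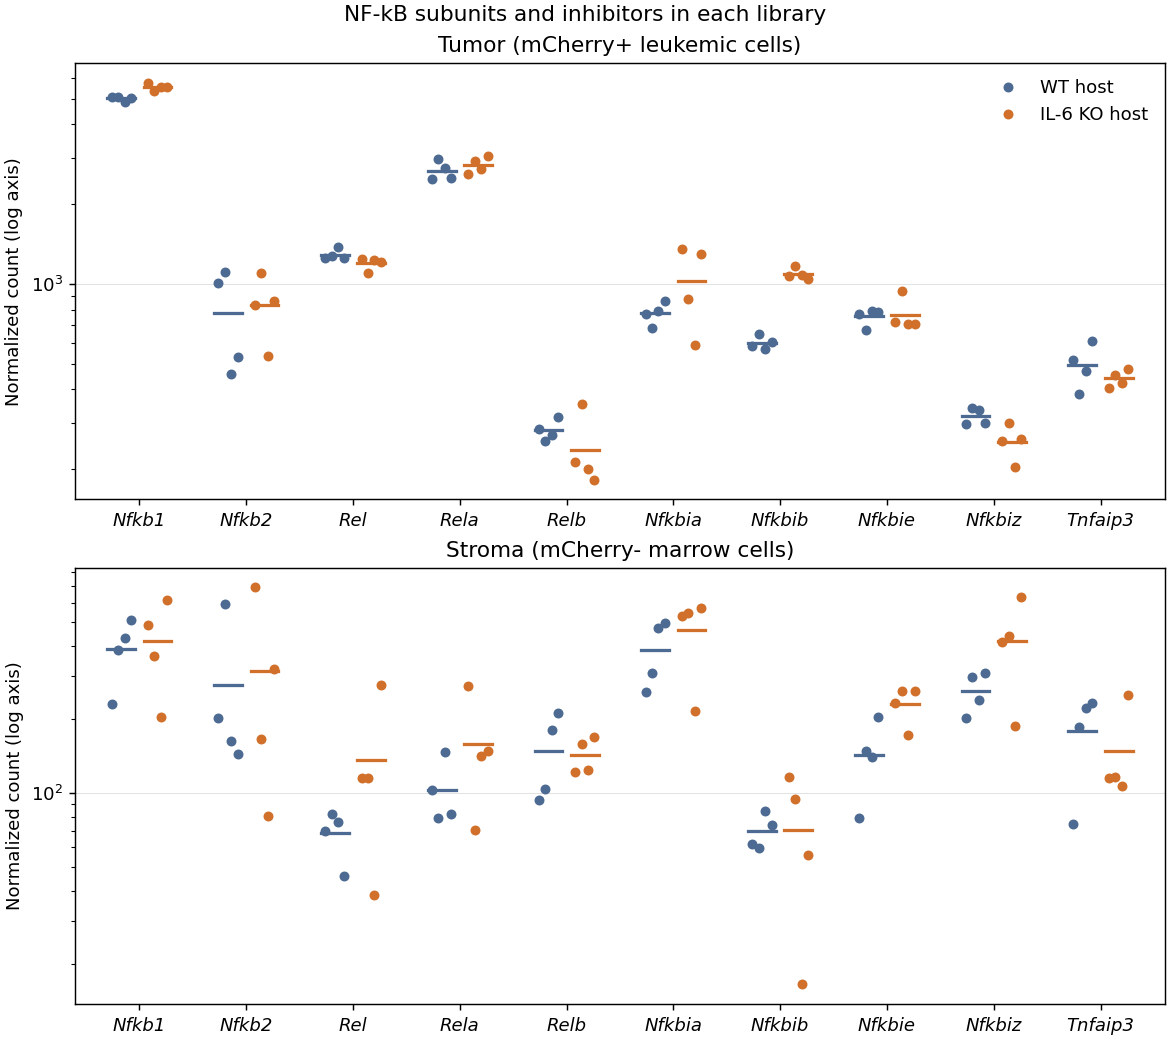
Normalized counts of the 10 genes on a log axis, with tumor in the upper panel and stroma in the lower panel. Each point is a library and each line the mean of a group of 4, and the 4 IL-6 KO tumor libraries lie between 1045 and 1171 for Nfkbib, above all WT tumor libraries, while in stroma the genotypes overlap for every gene.

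Nfkbib, the inhibitor IkB-beta, lies on chromosome 7 of GRCm38 from 28758251 to 28767512 on the minus strand (ENSMUSG00000030595.15). Its normalized counts were 582, 646, 571 and 604 in WT tumor 1 to 4 and 1069, 1171, 1078 and 1045 in IL-6 KO tumor 1 to 4. The genotypes lay far apart, with a gap between 646 and 1045 and little spread inside either group. The means were 601 ± 33.2 and 1090 ± 55.2 (SD, n = 4 each), a log2 difference of 0.86 (standard error 0.08, limma adjusted p = 5.41e-04, 95% interval of the fold 1.60 to 2.06). It ranked 30th by p among the 14493 genes. The values rested on 368 to 577 estimated reads in WT and 888 to 1770 in IL-6 KO tumor. Under all 17 alternatives tried the gene stayed called, with differences between 0.67 and 0.90.

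The neighbourhood of Nfkbib bears on how its reads were counted. The start site used by RefSeq, at 28766644, is separated by 90 bases from the first exon of Sirt2, a deacetylase gene that runs the other way from 28766735, and exons of Sirt2 and of Ccer2 overlap Nfkbib exons on the opposite strand. Of the 75-base windows of Nfkbib transcripts, 11.6% (242 of 2091) also occurred in another gene, on either strand. The library kit keeps the strand, but whether the quantification used it is not given in the sources used here. Sirt2 had normalized counts of 464 to 893 in WT tumor and 591 to 1101 in IL-6 KO tumor, a log2 difference of 0.41 (standard error 0.23, limma adjusted p = 0.236), and Ccer2 was not in the table.

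Markers of another cell type also differed between the tumor libraries. Summed markers of mature neutrophils (16 genes, all present in the table and none at 0) lay between 161 and 183 per 1000000 coding counts in WT tumor and between 233 and 567 in IL-6 KO tumor, and 10 of the 16 rose, S100a9 from a mean of 1061 to 2768 normalized counts (limma adjusted p = 0.00921). IL-6 KO tumor 3, with the lowest neutrophil sum of its group, 233, had an Nfkbib count of 1078, beside 1045 to 1171 in the other libraries of the group. In stroma Nfkbib stood at 1.06 ± 0.15 (WT) and 1.04 ± 0.65 (IL-6 KO; SD, n = 4) times the median coding gene per kb. Its means in tumor were 0.833 (WT) and 1.50 (IL-6 KO). IL-6 KO stroma 1 to 4 were at 1.73, 1.38, 0.249 and 0.796, with neutrophil sums of 9955, 7988, 2190 and 5684. The sums in WT stroma were 2476 to 4416. The part of neutrophils in the Nfkbib values was not tested.

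Nfkb1 encodes the p105 precursor of p50 and was the most abundant member in tumor per kb of the longest transcript, though Rela was above it per kb of the mean transcript length. Its normalized counts were 5085, 5063, 4880 and 5055 in WT tumor 1 to 4 and 5739, 5354, 5534 and 5548 in IL-6 KO tumor 1 to 4. Every IL-6 KO library was above every WT library, by a small step. The log2 difference of 0.14 (standard error 0.05) had an unadjusted p of 0.0261 and did not pass (limma adjusted p = 0.0930). It passed with array weights (limma adjusted p = 0.0297) and without IL-6 KO tumor 2 (limma adjusted p = 0.0446), at differences of 0.16 in both.

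Rel (c-Rel), a subunit known for its role in lymphocytes, also separated the genotypes, in the other direction. WT tumor 1 to 4 had 1252, 1275, 1377 and 1258 normalized counts, and IL-6 KO tumor 1 to 4 had 1245, 1101, 1237 and 1206. The groups touched without overlapping, at 1245 and 1252. The log2 difference was −0.11 (standard error 0.08, limma adjusted p = 0.336). With Nfkb1 and Nfkbib, Rel made 3 of 10 members whose libraries did not overlap, beside 25.6% of all genes tested in tumor.

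Rela (p65), the main activating subunit of the classical route, was level between hosts. The normalized counts lay between 2493 and 2964 in WT tumor and between 2592 and 3046 in IL-6 KO tumor, and the 95% interval of the log2 difference ran from −0.11 to 0.26.

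The members of the alternative route varied more inside the groups than between them. Nfkb2, the p100 precursor, had 1011, 1109, 458 and 529 normalized counts in WT tumor 1 to 4 and 836, 1105, 536 and 861 in IL-6 KO tumor 1 to 4. The 2 groups covered almost the same span, and the difference of 0.16 had a standard error of 0.31 (limma adjusted p = 0.746), the widest of the 10 in tumor. Of its 75-base windows 13.6% were shared with another gene, and exons of Psd and AC114539.1 overlap it on the opposite strand. Psd had a mean of 10.7 normalized counts in WT and 34.2 in IL-6 KO tumor, and AC114539.1 was not in the table. Relb, the usual partner of p52, was at 283, 255, 269 and 316 in WT tumor and 213, 352, 199.8 and 183 in IL-6 KO tumor. IL-6 KO tumor 2 stood above every WT library and the other 3 below every one. The log2 difference was −0.29 (standard error 0.20, limma adjusted p = 0.332), and −0.49 without IL-6 KO tumor 2 (limma adjusted p = 0.0241).

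Nfkbia, the inhibitor that NF-kB itself induces most readily, had 768, 682, 792 and 862 normalized counts in WT tumor 1 to 4 and 1359, 874, 588 and 1296 in IL-6 KO tumor 1 to 4. IL-6 KO tumor 1 and 4 were far above all WT libraries, IL-6 KO tumor 2 just above them, and IL-6 KO tumor 3 below them all. The difference of 0.33 (standard error 0.24) did not pass (limma adjusted p = 0.344), and without IL-6 KO tumor 3 it was 0.58 and passed (limma adjusted p = 0.0435). IL-6 KO tumor 3 was also the library of its group with the lowest neutrophil sum, and the part of those cells in the Nfkbia values was not tested.

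Nfkbie, which acts mainly on Rel and Rela pairs, had a log2 difference of 0.01 (standard error 0.12, limma adjusted p = 0.950) and the ranges of 669 to 792 normalized counts in WT tumor and 704 to 939 in IL-6 KO tumor. Nfkbiz, an atypical IkB protein that works in the nucleus on secondary response genes, was at 297, 342, 333 and 299 in WT tumor and 255, 298, 203 and 260 in IL-6 KO tumor. A single IL-6 KO library, at 298, reached into the WT range. The difference was −0.33 (standard error 0.14), with an unadjusted p of 0.0349, and did not pass (limma adjusted p = 0.112). Tnfaip3, the ubiquitin-editing enzyme that shuts the pathway down, was between 384 and 607 in WT tumor and between 404 and 479 in IL-6 KO tumor (difference −0.15, standard error 0.14, limma adjusted p = 0.485).

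**Figure D2:**
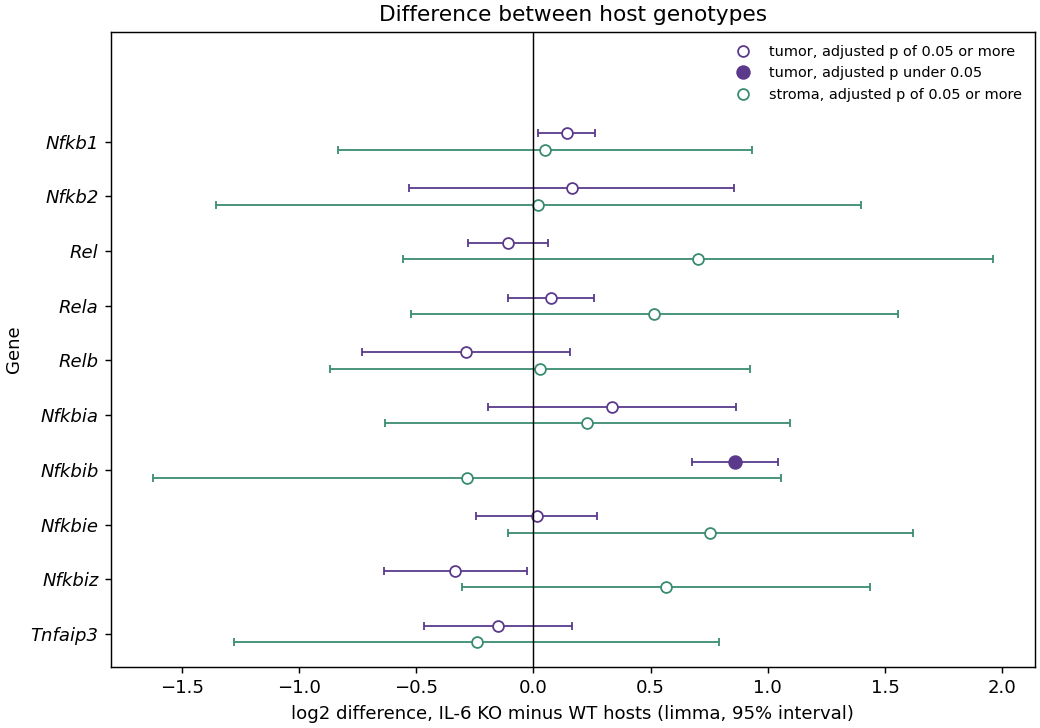
Log2 differences between IL-6 KO and WT hosts for the 10 genes, in tumor and stroma, with 95% intervals from limma (4 libraries per group). The filled point, Nfkbib in tumor at 0.86, is the only one with an adjusted p under 0.05, and the stroma intervals are wide, with standard errors from 0.40 to 0.64.

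In stroma no member passed the threshold (limma), and none had an unadjusted p under 0.05. Of all 12202 genes tested there, 0.0082% passed (1 gene), and 1117 had an unadjusted p under 0.05. A member's value rested on 83.5 to 1487 estimated reads in WT stroma and on 9.55 to 552 in IL-6 KO stroma, beside 171 to 9506 in tumor, and Nfkbia, Nfkbiz and Relb had more of them on average in WT stroma than in WT tumor. The median residual SD of the members was 0.61 on the log2 scale, beside 0.17 in tumor. Standard errors ran from 0.40 to 0.64, beside 0.05 to 0.31 in tumor, and differences of the size seen for Nfkbib in tumor lay inside every interval but that of Tnfaip3. The median difference of the members was 0.14, beside −0.01 over all genes, with 8 higher and 2 lower. The sign of Nfkb1, Nfkb2, Relb and Nfkbib turned under at least 1 alternative. No member had libraries that did not overlap between hosts, which 5.79% of all genes had.

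The smallest p among the members in stroma belonged to Nfkbie. It had 79.0, 149, 140 and 204 normalized counts in WT stroma 1 to 4, and those of IL-6 KO hosts had 234, 261, 173 and 261. Only IL-6 KO stroma 3 fell within the range of the WT libraries, and the difference of 0.75 (standard error 0.40) had an unadjusted p of 0.0814 and a limma adjusted p of 0.583. Nfkbiz, at 202, 298, 240.5 and 310 with WT hosts and 414, 439, 188 and 631 with IL-6 KO hosts, was alike in shape, with IL-6 KO stroma 3 below all WT libraries (difference 0.56, standard error 0.40, limma adjusted p = 0.688). Nfkbia was at 259, 309, 475 and 495 in the WT libraries, and at 531, 545, 216 and 569 in the IL-6 KO libraries. Here too IL-6 KO stroma 3 was lowest and the other 3 libraries were above all WT libraries (difference 0.23, standard error 0.40, limma adjusted p = 0.892). These 3 genes therefore had the same library out of place.

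Among the subunits in stroma, Rel had the widest gap between means, with 45.7 to 82.0 normalized counts in WT libraries and 38.3 to 276 in IL-6 KO libraries, around means of 68.4 and 136. The highest value was that of IL-6 KO stroma 4 and the lowest that of IL-6 KO stroma 3, and the difference of 0.70 (standard error 0.58) did not pass (limma adjusted p = 0.735). Rela differed by 0.52 (standard error 0.48, limma adjusted p = 0.766), with 275 in IL-6 KO stroma 1 beside 70.9 to 149 in the other libraries of its group. Nfkb1, Nfkb2 and Relb had differences of 0.05, 0.02 and 0.03. Nfkb2 again spread most, from 80.9 to 692 normalized counts over the IL-6 KO libraries and from 144 to 594 over the WT libraries.

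Nfkbib, higher in tumor of IL-6 KO hosts, had 61.9, 59.5, 84.4 and 74.4 normalized counts in WT stroma 1 to 4, and those of IL-6 KO hosts had 116, 94.6, 16.6 and 55.9. The IL-6 KO libraries lay on both sides of the WT libraries. The difference was −0.28 (standard error 0.62, limma adjusted p = 0.916), with a 95% interval of the fold from 0.325 to 2.08, and 0.29 without IL-6 KO stroma 3. Tnfaip3 was at 74.7 to 233 with WT hosts and at 107 to 253 with IL-6 KO hosts (difference −0.24, standard error 0.48, limma adjusted p = 0.903).

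In stroma most members were high or low in the same libraries. The median deviation of the 10 members from their means over the 8 libraries was −0.60, −0.08, 0.21 and 0.23 in the 4 WT libraries and 0.40, 0.30, −0.82 and 0.53 in the 4 IL-6 KO libraries, on the log2 scale. Libraries 1, 2 and 4 of IL-6 KO hosts stood above every WT library, and IL-6 KO stroma 3 below every one. The number of members above their mean ran from 0 in WT stroma 1 and 1 in IL-6 KO stroma 3 to 9 in IL-6 KO stroma 4. A list of known NF-kB target genes without the members, of which 27 could be tested and which shares Il1b and Mmp9 with the neutrophil markers, had its lowest mean deviations in the same libraries, −0.85 in WT stroma 1 and −0.93 in IL-6 KO stroma 3, and its highest, 0.82, in IL-6 KO stroma 4.

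By mean deviation, markers of myeloid cells were low or high in the same 3 libraries. The mean deviation of mature neutrophil markers was −0.99 in WT stroma 1, −0.84 in IL-6 KO stroma 3 and 1.15 in IL-6 KO stroma 4, and that of 8 monocyte and macrophage markers −1.25, −1.31 and 1.57. Summed neutrophil markers were 2476 to 4416 per 1000000 coding counts with WT hosts and 9955, 7988, 2190 and 5684 with IL-6 KO hosts, so the library highest in members was not the highest in this sum. Sums of 9 monocyte and macrophage markers were 119, 152, 198 and 261 in WT stroma 1 to 4. In IL-6 KO stroma 1 to 4 they were 224, 175, 199 and 282. By this sum IL-6 KO stroma 3 was not the lowest of its group, although 4 of the 9 genes were at 0 in it. Erythroid markers ran the other way in the IL-6 KO libraries only, with sums of 17118, 34324, 60866 and 10353. In WT stroma 1 to 4 the sums were 38526, 48561, 38302 and 51987, without that order. The part of these cells in the members' values was not tested. In tumor the same spread was small, with median deviations of the members between −0.11 and 0.08.

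The test of whether the host effect differed between tumor and stroma gave no member past the threshold. It used 1 fit over the 10887 genes tested in both tables, of which 0.00919% passed (1 gene), and 954 had an unadjusted p under 0.05. Nfkbib had the smallest p of the members, with an effect larger in tumor by 1.14 (standard error 0.52, unadjusted p = 0.0431, limma adjusted p = 0.549). For Nfkbiz and Rel the effect was lower in tumor by differences of −0.90 (standard error 0.50) and −0.81 (standard error 0.49), at limma adjusted p of 0.644 and 0.674. A rise of Nfkbib that is particular to leukemic cells was thus not shown by this test.

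Tumor and stroma differed in which members stood highest. Levels per kb of the longest coding transcript, as a multiple of the median coding gene of the library, put tumor and stroma side by side without a test, since the tables were normalized separately. In WT tumor Nfkb1 led with 3.48 ± 0.06 (SD, n = 4), followed by Rela with 2.82 ± 0.26 and Nfkbia with 1.40 ± 0.12. The ranges of these 3 did not overlap. Nfkbie at 0.886 and Nfkbib at 0.833 came next with overlapping ranges, then Nfkb2 at 0.578 and Rel at 0.494, which overlapped too, then Relb at 0.363, Tnfaip3 at 0.319 and, lowest, Nfkbiz at 0.221. In IL-6 KO tumor the order was the same except that Nfkbib, at 1.50 ± 0.07 (SD, n = 4), stood above Nfkbie at 0.889 with no overlap, and its range met that of Nfkbia at 1.84 ± 0.66.

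In WT stroma Nfkbia led, at 7.60 ± 2.23 (SD, n = 4) times the median coding gene, with no library below any of Nfkb1, the next, at 2.95 ± 0.87. From Nfkb1 down, neighbours in the order overlapped (Nfkb2 at 2.26, Relb at 2.09, Nfkbiz at 2.00, Nfkbie at 1.84, Tnfaip3 at 1.26, Rela at 1.18 and Nfkbib at 1.06), until Rel at 0.287. IL-6 KO stroma also had Nfkbia first, at 8.89 ± 3.10 (SD, n = 4), and Rel last, at 0.547, and every neighbour overlapped. Rela and Nfkb1 lead among the subunits of leukemic cells, while Nfkbia stands above every subunit in the host cells.

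**Figure D3:**
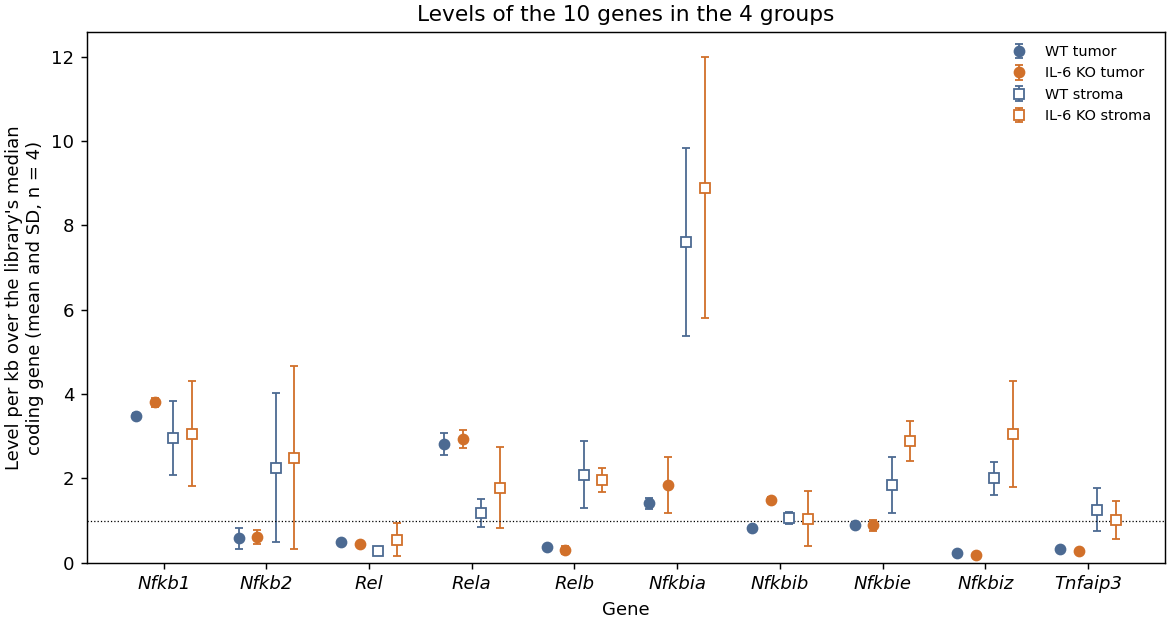
Levels of the 10 genes per kb, as multiples of the median coding gene of the same library (dotted line at 1), in the 4 groups. Points are means and bars are SDs of 4 libraries, and Nfkbia in stroma, at 7.60 and 8.89, stands above all other values.

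Shares within a library do not depend on how a table was scaled. Of the summed level of the 5 subunits per kb, Rela made up 33.7% to 38.4% in tumor libraries and 8.67% to 28.4% in stroma libraries, and Relb 2.82% to 5.49% in tumor and 11.7% to 32.8% in stroma. Nfkb2 held 4.55% to 9.96% in tumor and 11.4% to 46.0% in stroma. Nfkb1 held 42.5% to 49.3% in tumor and 25.2% to 42.1% in stroma. Rela, Relb, Nfkb2 and, narrowly, Nfkb1 thus had ranges over the 8 libraries of each compartment that did not meet. With the mean transcript length those of Nfkb1 met, at 37.4% to 43.9% and 24.5% to 44.8%. Rel overlapped, with 4.97% to 7.05% in tumor and 2.08% to 9.20% in stroma. Among the 3 classical inhibitors, Nfkbia took 31.4% to 51.4% in tumor and 63.5% to 75.4% in stroma, and Nfkbib 25.1% to 44.2% in tumor and 3.72% to 13.2% in stroma.

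The ratio of Nfkbia to Rela per kb was 0.374 to 0.902 in tumor and 2.62 to 13.2 in stroma. The 3 inhibitors together came to 0.352 to 0.592 of the 5 subunits in tumor and to 0.852 to 2.03 in stroma. With the mean transcript length of each gene in place of the longest, the ratios of Nfkbia to Rela were 0.232 to 0.561 and 1.63 to 8.23, and the shares of Rela 44.1% to 49.4% and 13.3% to 40.5%, so the compartments stayed apart for both, while Rela then stood above Nfkb1 in tumor. Between hosts, the share of Nfkbib among the inhibitors was 25.1% to 30.7% in WT tumor and 31.0% to 44.2% in IL-6 KO tumor, and that of Nfkbie 26.9% to 29.4% and 17.6% to 25.6%. These shares carry the rise of Nfkbib and are no separate evidence of it.

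**Figure D4:**
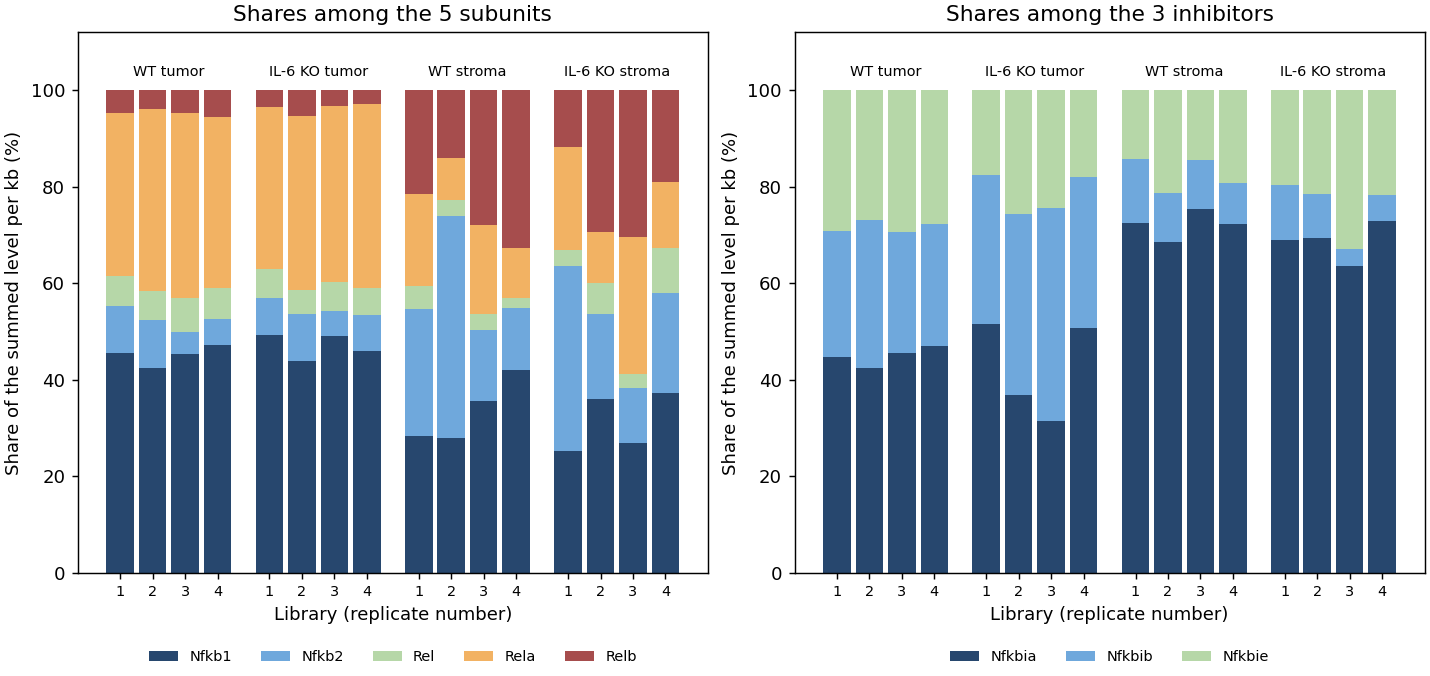
Shares of the summed level per kb (%) of the 5 subunits (left) and of the 3 classical inhibitors (right), with 1 stacked bar per library in the 4 groups. Rela holds 33.7% to 38.4% of the subunits in tumor and at most 28.4% in stroma, and Nfkbia 63.5% to 75.4% of the inhibitors in stroma.

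Other genes of the pathway, on lists that hold the members' kinases, adaptors, receptors, further inhibitors and known targets, gave few calls. Of 81 such listed genes, 71 could be tested in tumor, and 5 rose and 3 fell, 11.3% in all beside 19.8% over all genes tested. In stroma none of the 69 tested passed (limma), and 9 had an unadjusted p under 0.05.

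Upstream of the members in tumor, the kinase list (IKK complex and NIK) had 1 of 9 genes called, Tab2, an adaptor of the TAK1 kinase, which fell by 0.37 on the log2 scale (standard error 0.10, limma adjusted p = 0.0296). Of 17 adaptors and ubiquitin ligases, Traf2 rose from 1189 to 1498 normalized counts (log2 difference 0.33, limma adjusted p = 0.0112) and Myd88, the adaptor of Toll-like and interleukin-1 receptors, by 0.40 (limma adjusted p = 0.0462). Malt1, the protease that carries antigen receptor signals to IKK, fell from 1880 ± 419 to 1103 ± 71.0 (SD, n = 4; log2 difference −0.75, limma adjusted p = 0.00727). Of 12 receptors, Tnfrsf1a, the main receptor for TNF, rose from 19.3 ± 8.95 to 87.0 ± 35.2 (SD, n = 4; log2 difference 2.09, limma adjusted p = 0.00867), and Tlr7 fell from 161 to 70.8 (log2 difference −1.12, limma adjusted p = 0.0117). Myeloid cells use Tnfrsf1a and Myd88 as well, and beside the neutrophil sums above, those of 13 monocyte and macrophage markers were 27.2 to 37.1 in WT and 29.6 to 69.9 in IL-6 KO tumor, and the part of such cells in these values was not tested.

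Of 10 other inhibitors, Nfkbil1, a gene of the MHC region named for its likeness to IkB proteins, rose from 1457 ± 98.5 to 2298 ± 216 (SD, n = 4; log2 difference 0.65, limma adjusted p = 0.00219). Of its windows 8.50% were shared with other genes, and Atp6v1g2 and Gm16181 overlap its exons on the opposite strand. Of 27 known target genes 1 was called, the adhesion molecule Icam1, at a log2 difference of 0.28 (standard error 0.08, limma adjusted p = 0.0391), with 11.1% of its windows shared. The median difference of these targets was 0.19, with 16 higher and 11 lower, beside −0.0059 over all genes. The targets include Il1b and Mmp9, which are also among the 16 neutrophil markers, all higher in IL-6 KO tumor. The part of neutrophils in this difference was not tested.

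In stroma, the 2 genes of smallest p in each list did not pass the threshold. Ikbkb, the catalytic kinase IKK2, had means of 314 ± 144 (WT) and 1008 ± 339 (IL-6 KO; SD, n = 4; log2 difference 1.73, limma adjusted p = 0.302), and Myd88 85.7 ± 47.3 and 244 ± 73.6 (log2 difference 1.58, limma adjusted p = 0.370). The libraries of these genes did not overlap between hosts, nor did those of Mmp9, a target gene and neutrophil protease, at a difference of 1.25 (limma adjusted p = 0.364), or of Tnfrsf13c, the BAFF receptor of B cells, at −3.71 (limma adjusted p = 0.324). Picking genes by smallest p favours such separation, which 5.79% of all genes tested in stroma had. The remaining genes were Tab1 (−1.81), Birc2 (−0.60), Il1rap (1.97), Tnip2 (1.54), Tax1bp1 (−0.74) and Bcl2l1 (−0.92), with limma adjusted p from 0.459 to 0.660.

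The genes whose pattern was most like that of Nfkbib over the 8 tumor libraries, by Pearson's r of log2 values over 11741 coding genes, were Bms1 (r = 0.988), a factor of ribosome assembly, Pycard (r = 0.987), the inflammasome adaptor ASC, and Fem1a (r = 0.985). In all, 96 genes had an r over 0.95, and the 8 libraries share the difference between hosts, on which such values rest. In stroma the genes most like Nfkbie were Mylk4 (r = 0.986), Apba1 (r = 0.981) and Pknox1 (r = 0.978), and 18 genes of 10811 had an r over 0.95.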

How the data were processed

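Bulk RNA was sequenced from 16 sorted bone marrow samples, grouped by genotype, compartment and replicate in their labels. The authors depleted ribosomal RNA, prepared directional libraries, ran Salmon 1.3.0 on mm10 transcripts and scaled the resulting estimated counts by DESeq2 1.28.1 size factors (versions per the submitters' processing notes). The annotation release is not given in the sources used here. The deposited normalized counts are a scaled signal, 1 table per compartment, and all sample columns were used. The authors also deposited their DESeq2 comparisons (mean, log2 fold change, p-value), which were not used here. The worth of 1 read was taken as the largest step between exactly repeating values. Few values were whole multiples of a read (tolerance 0.01), so no count test was run.

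Genotypes were compared within each table with limma 3.58.1 in R 4.3.3 on log2(normalized count + 1) with a variance trend, for genes with a mean over 10, with genotype as the only term, two-sided, with Benjamini-Hochberg adjustment. The log2 scale with a pseudocount of 1 understates the change of low genes. Tumor and stroma were joined in 1 fit with an interaction and a variance factor per compartment. The tests were tried on simulated data first. At a log2 change of 1 they recovered 64 of 96 changed genes in tumor, 0 of 96 in stroma and 6 of 154 in the joint fit. At a change of 2 they recovered 83 of 97, 3 of 99 and 49 of 171. False calls were 4, 0 and 19. Changes of these sizes would thus mostly be missed in stroma and in the joint fit. GENCODE vM21 (GRCm38) gave positions, transcript lengths and 75-base windows, and 15069 of 15080 tumor and 13338 of 13344 stroma identifiers matched, versions ignored. Scripts used Python 3.11.15, pandas 2.3.3, NumPy 2.4.6 and matplotlib 3.10.9. Levels per kb were divided by the median of the 10534 coding genes in both tables.

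The members, the lists and the tests were chosen with earlier results of these data known. Named genes were the 10 members, up to 4 genes of smallest p among those called in tumor and 2 in stroma from each pathway list, the 3 coding genes most correlated with the member of smallest p, and markers that check a label. Sirt2, Psd, Ccer2 and AC114539.1 were named for their overlap with members, and Rn7s1 and CT010467.1 after their values were seen. Alternatives were pseudocounts of 0.5 and 5, filters of none and 50, quantile normalization, median centring, array weights, a replicate block, removal of the GC content and length trend (loess, span 0.3), equal variance, each library left out, and mean transcript length. The shares of members within a library were added after the data were seen. Protein sequences were not used here.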

Additional observations from a re-analysis of the deposited data

Results flagged for a closer look

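In 6 of 40 groups of 4 libraries, 1 library lay far from the others of its group for a member (gap over the range above Dixon's critical value), where chance alone gives about 1 in 20 independent groups. The members were measured in the same libraries, so the 40 groups are not independent and the count cannot show an excess. In tumor these were Nfkb1 in WT tumor 3, the lowest at 4880 normalized counts, and Nfkbie in WT tumor 2, the lowest at 669, and in IL-6 KO tumor 2, the highest at 939. In stroma they were Nfkb2 in WT stroma 2, the highest at 594, Nfkbia in IL-6 KO stroma 3, the lowest at 216, and Tnfaip3 in IL-6 KO stroma 4, the highest at 253. The call of Nfkbib rests on none of these libraries, and it was made in each fit that left 1 of them out.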

How the results depend on the processing

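Nfkbib in tumor was called under all 17 alternatives, with limma adjusted p between 1.23e-04 and 0.00577. The members called in tumor were 3 with array weights (Nfkb1, Nfkbib and Relb), and 1 to 4 with a library left out, 4 without IL-6 KO tumor 2 (with Nfkb1, Relb and Nfkbiz) and 2 without IL-6 KO tumor 3 (with Nfkbia). Over all tumor genes, 1569 to 3327 passed with a library left out, beside 2870. In stroma 4 genes passed with array weights and 1 to 3 with a library left out, and in the test of tumor against stroma 3 passed with equal variance and 0 to 8 with a library left out. No member passed in either. With the replicate block, 2230 tumor genes and 1 member passed. WT and IL-6 KO libraries of the same number had correlations of deviations of −0.0186 to −0.000283 in tumor and −0.0293 to 0.126 in stroma. Those of different number reached 0.138 in stroma. These values show no clear pairing by number but cannot exclude one, and the block changed no call of a member. The joint fit took tumor and stroma libraries as independent. Whether a number marks the same mouse in both is not given in the sources used here.

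Signs turned as follows, the causes not tested. With the GC content and length trend removed, the log2 differences were 0.14 for Rel, −0.082 for Rela and −0.14 for Nfkbie in tumor, and −0.18 for Nfkb2 and −0.26 for Relb in stroma. With array weights they were −0.088 for Nfkbie in tumor, and −0.076 for Nfkb1, −0.40 for Nfkb2 and 0.022 for Nfkbib in stroma. Quantile normalization gave −0.0029 for Nfkb2 and −0.015 for Relb in stroma, and median centring −0.0072 and −0.0016. With a library left out, differences in tumor ran from −0.056 to 0.37 for Nfkb2 and −0.088 to 0.051 for Nfkbie. In stroma they ran from −0.18 to 0.36 for Nfkb1, −0.50 to 0.53 for Nfkb2, −0.16 to 0.23 for Relb and −0.62 to 0.29 for Nfkbib, and for tumor minus stroma from −0.21 to 0.33 for Nfkb1, −0.37 to 0.66 for Nfkb2, −0.23 to 0.35 for Nfkbia and −0.077 to 0.47 for Tnfaip3. None of these values passed the threshold. With mean transcript length, 21 of 40 levels per kb moved by more than 1 SD and 19 did not. The spread between stroma libraries was wider than in tumor, and how much of it comes from depth was not tested.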
